A study of Saccharomyces cerevisiae with 72 samples.

Results

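Among 7 peptidase genes of yeast, most of them for enzymes of the vacuole, CPS1 rose 13.4-fold in wild type after 1 h of rapamycin, and 2.10-fold in a strain without GLN3. DAP2 rose with rapamycin and with 3-aminotriazole (3-AT) in every genotype. PEP4 fell with 3-AT in wild type, gln3 and gcn2 gln3 with all arrays and in all 6 genotypes without 3 arrays of high actin ratio, and no mutant's response differed from that of wild type by a margin that passed. LAP3 fell with 3-AT in the strains without GCN2 or GCN4. The difference of its response from that of wild type passed in none of these strains with all arrays, and in each without those 3. APE3 passed the test in no comparison. The genes were chosen by name (PEP4, PRB1, PRC1, CPS1, APE3, LAP3 and DAP2), each is read by 1 probe set of its own, and they are 7 of the 5656 genes that have one. The probe set of LAP3 is of a design that can read similar sequences, though the annotation used here gives it LAP3 alone.

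The series holds 72 Affymetrix arrays of Saccharomyces cerevisiae in 18 groups of 4. Each of 6 genotypes, 1 strain per genotype, was treated with 200 nM rapamycin for 1 h, treated with 10 mM 3-AT for 1 h, or left without stress. The genotypes were gcn2 (strain KY654), gcn4 (KY656), gln3 (KY640), gcn2 gln3 (KY641), gcn4 gln3 (KY643) and wild type (KY652), where each mutant carries a deletion of the genes named. The cultures grew in synthetic medium that had dextrose at 2%, ammonium sulfate at 0.5% and every amino acid other than histidine, and the labels name no vehicle for the untreated cells. Rapamycin inhibits the kinase complex TORC1, and 3-AT inhibits the histidine biosynthetic enzyme His3. Gcn2 is the kinase that senses uncharged tRNA, Gcn4 the transcription activator made when Gcn2 is active, and Gln3 a GATA-type activator that TORC1 holds out of the nucleus. The study asked how the general amino acid control and TOR pathways direct transcription in these 2 conditions.

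The vacuole is the main lytic compartment of the yeast cell, and its peptidases break down proteins that reach it by autophagy, endocytosis and sorting, which returns amino acids to the cell. Most of these enzymes are made as inactive precursors that are activated in the vacuole. Pep4 (proteinase A) starts that cascade and Prb1 (proteinase B) carries it on, and both cut within proteins. Prc1 (carboxypeptidase Y) and Cps1 (carboxypeptidase yscS) take residues off the C-terminal end, Ape3 (aminopeptidase Y) takes them off the N-terminal end, and Dap2 (dipeptidyl aminopeptidase B), a protein of the vacuolar membrane, takes off dipeptides. Lap3, also called Blh1 or Gal6, is known as the yeast bleomycin hydrolase, a cysteine aminopeptidase of the cytosol. It is not the vacuolar aminopeptidase I, which is encoded by LAP4 (APE1), so vacuolar is no accurate word for 1 of the 7 genes and LAP3 is described on its own.

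All 7 genes lay above background, the 30th percentile of an array's signals, on all 72 arrays. The ratio of actin signal from the 3′ to the 5′ end of the mRNA, a check of RNA quality, was 1.31 to 5.03 on 69 arrays. It was 229.5 for replicate 1 of gcn2 gln3 with 3-AT and 113 for that number of the same strain under rapamycin. The third such array, with a ratio of 43.2, is replicate 2 of the rapamycin group of gcn4 gln3. It was the array least like the others, with a mean correlation with them of 0.380. That mean was 0.792 and 0.830 for the 2 gcn2 gln3 arrays and at least 0.868 on the 69. On the gcn4 gln3 array PEP4 gave 1354 against 14054 to 17378 on the other 3 of its group. PRB1 gave 191 there against 5924 to 9734, and PRC1 1107 against 14768 to 23679. Results of the 7 genes are given with all arrays and, where a call or direction differs, without these 3. In the 18 groups of 4 the array with the highest actin ratio was also the lowest of its group for PRB1 in 12 groups and for PEP4 in 10, and the highest for DAP2 in 12. It was the lowest in 9 groups for LAP3 and in 9 for PRC1, and the highest in 8 for APE3. For CPS1 it was the lowest in 4 and the highest in 3. The part of RNA quality in the members' values beyond these counts was not tested. As a check of the labels, GCN4 gave 3.85 to 86.8 in the 24 samples that lack it and 8079.9 to 23622 in the other 48, and GLN3 0.416 to 39.4 in the 36 that lack it and 124 to 869.6 in the other 36. GCN2 overlapped, at 74.9 to 226 on the 24 arrays of the gcn2 strains and 81.5 to 391 elsewhere, but not without treatment (74.9 to 123 on 8 arrays and 201 to 256 on 16).

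Values below are signals on a linear scale, as deposited, and changes are log2 ratios ± standard error from limma, with 4 arrays per group and p-values adjusted over 6869 probe sets. To rise, to fall or to pass means an adjusted p under 0.05 with all 72 arrays, unless the sentence says without the 3 arrays. The labels do not say whether replicates are separate cultures, and the p-values measure no more than the spread among these arrays. RNA came from whole cultures, so a change in every cell and a larger one in some cells cannot be told apart. The untreated arrays of a genotype serve both of its drug comparisons.

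**Figure D1:**
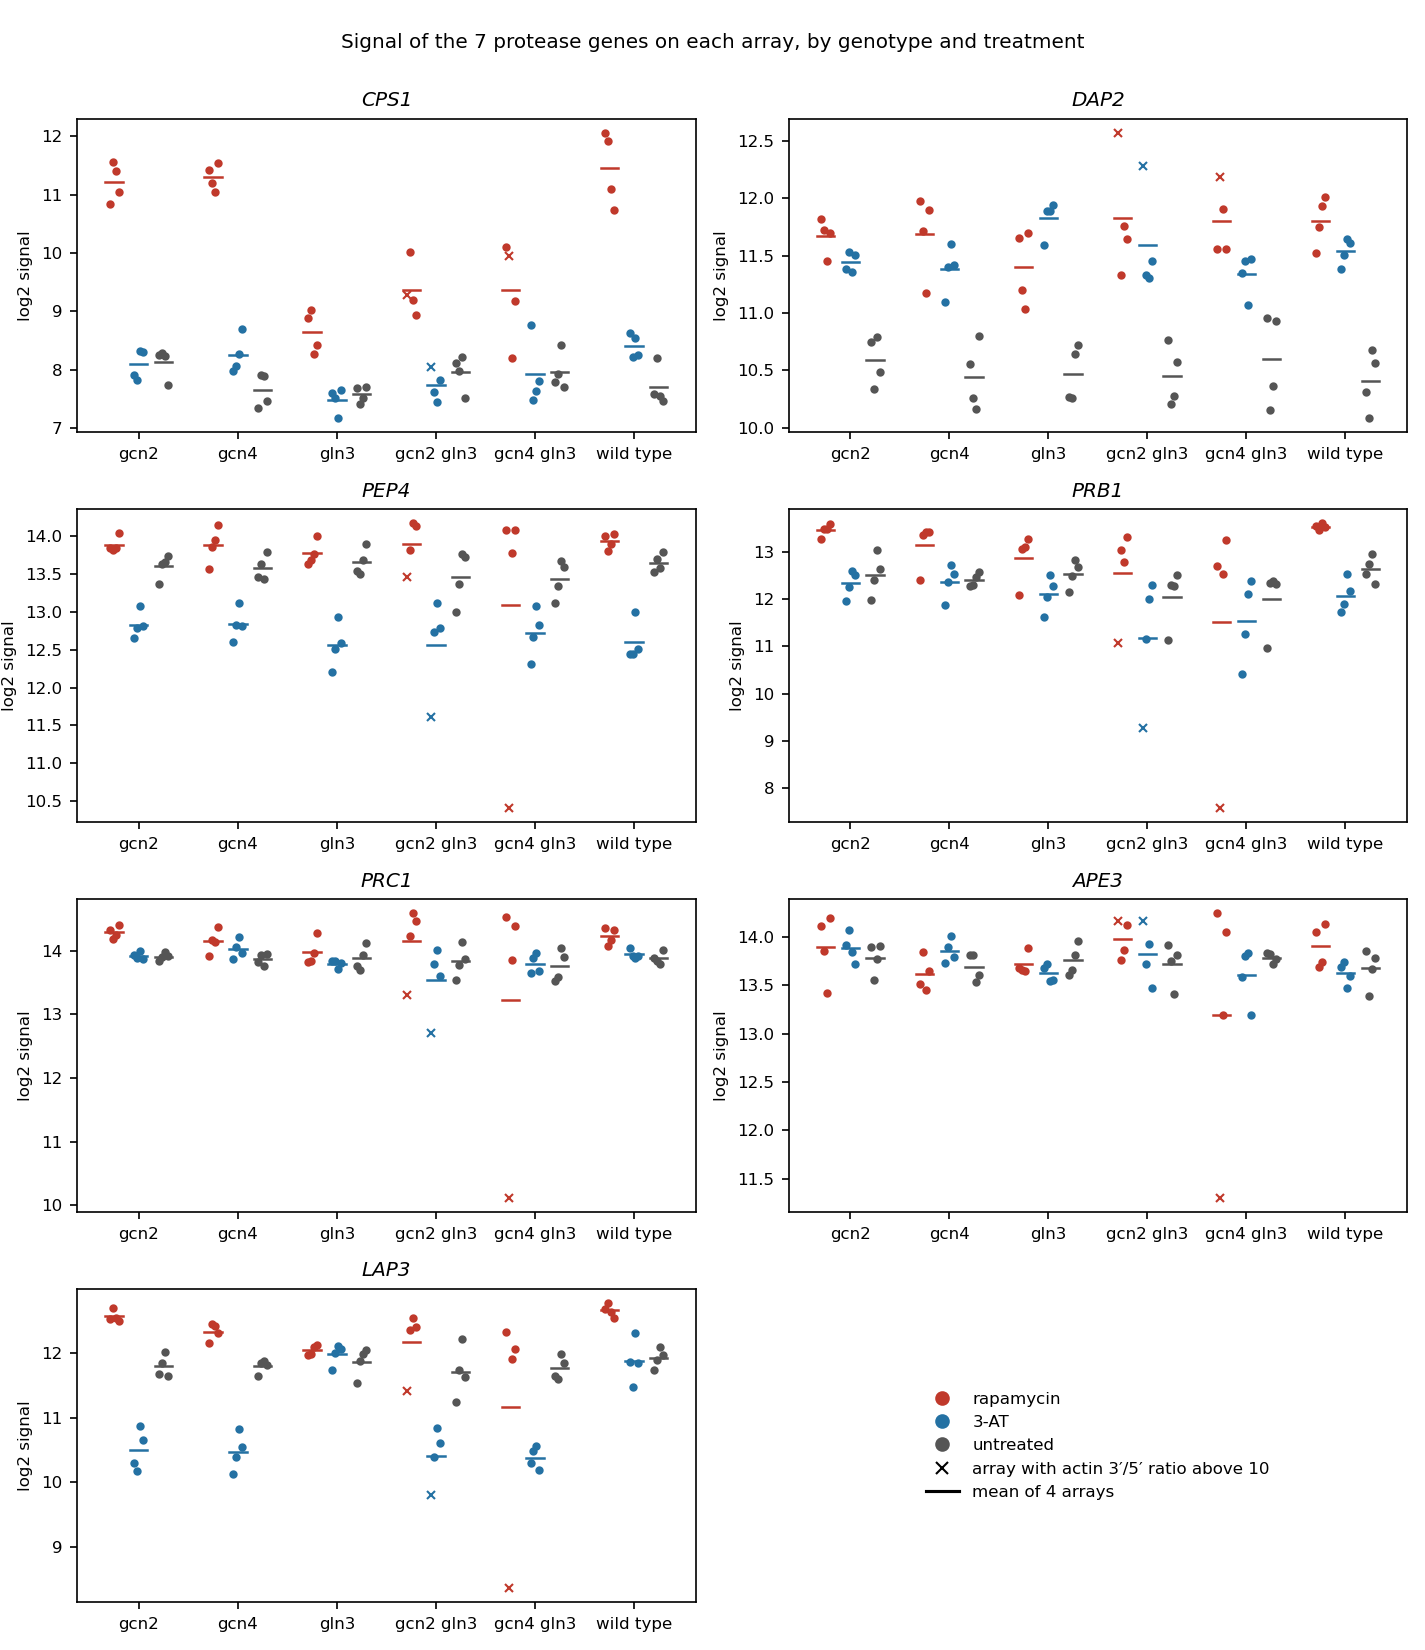
Log2 signal of each of the 7 genes on each of the 72 arrays (points), with the mean of each group of 4 (line), by genotype and by treatment (rapamycin, 3-AT, untreated). Crosses mark the 3 arrays with an actin 3′/5′ ratio above 10. CPS1 is high with rapamycin in the 3 genotypes that have GLN3, and LAP3 is low with 3-AT in the 4 genotypes that lack GCN2 or GCN4.

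The endoproteinase gene PEP4, whose product activates the other vacuolar precursors, gave 5558, 5585, 8184 and 5822 in wild type with 3-AT, against 11777, 13329.5, 12208 and 14217 untreated. The arrays do not overlap, and PEP4 fell by 1.05 ± 0.35 (adjusted p = 0.013). In gln3 it gave 4744, 5845, 7799.7 and 6138 with 3-AT, against 11976, 11644, 13238 and 15331 untreated, and fell there too (-1.10 ± 0.35, adjusted p = 0.011). In gcn2 gln3 the change was -0.90 ± 0.35, adjusted p = 0.033, but it did not pass without replicate 1 of the 3-AT group, one of the 3 arrays (-0.58, adjusted p = 0.21), or without replicate 2, 3 or 4 of the untreated group (adjusted p = 0.050, 0.088 and 0.088). Without all 3 arrays it was -0.58 ± 0.17, adjusted p = 0.0031.

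In the other mutants the change of PEP4 with 3-AT did not pass with all arrays. It was -0.77 ± 0.35, adjusted p = 0.074, in gcn2, -0.74 ± 0.35, adjusted p = 0.077, in gcn4, and -0.71 ± 0.35, adjusted p = 0.094, in gcn4 gln3. In these 3 strains as well all 3-AT arrays lie below all untreated ones, at 6440.4 to 8654 with 3-AT against 10632 to 13625 untreated in gcn2, 6237 to 8902 with 3-AT against 11117 to 14148 untreated in gcn4 and 5071 to 8625 with 3-AT against 8869 to 13114 untreated in gcn4 gln3. Without the 3 arrays, none of which is in these groups, the standard error was 0.16 and all 3 passed (adjusted p = 3.6e-05, 5.7e-05 and 1.0e-04). The differences of the mutants' responses from that of wild type lay between -0.05 and 0.34, and none passed with all arrays or without the 3. With rapamycin PEP4 gave 16428, 14329.9, 15319.7 and 16781 in wild type, all above the untreated arrays, but the change did not pass (0.29 ± 0.35, adjusted p = 0.55; adjusted p = 0.12 without the 3 arrays). In the 2 double mutants it passed without the 3 arrays (0.58 ± 0.17, adjusted p = 0.0043, in gcn2 gln3 and 0.55 ± 0.17, adjusted p = 0.0061, in gcn4 gln3), where with all arrays it read 0.44 ± 0.35, adjusted p = 0.39, and -0.34 ± 0.35, adjusted p = 0.43. Set against rapamycin in wild type, PEP4 was lower with 3-AT (-1.34 ± 0.35, adjusted p = 0.0016).

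PRB1, for the second endoproteinase, gave 12048, 11314, 12508 and 11826 in wild type with rapamycin, against 5952, 6909, 7982 and 5132 untreated, with no overlap. Its change did not pass with all arrays (0.90 ± 0.58, adjusted p = 0.23). The standard error was the largest of the 7 genes, and was 0.31 without the 3 arrays. PRB1 rose without the 3 arrays in wild type under rapamycin (0.90 ± 0.31, adjusted p = 0.012), in gcn2 (0.95 ± 0.31, adjusted p = 0.0097), in gcn4 (0.75 ± 0.31, adjusted p = 0.038), in gcn2 gln3 (1.00 ± 0.34, adjusted p = 0.013) and in gcn4 gln3 (0.82 ± 0.34, adjusted p = 0.041). In gcn4 gln3 its sign depends on them, since the value was -0.49 ± 0.58, adjusted p = 0.51, with all arrays. In gln3 it did not pass (0.34 ± 0.31, adjusted p = 0.38). The difference between gln3 and wild type did not pass either (-0.55 ± 0.82, adjusted p = 1.0; -0.55 ± 0.44, adjusted p = 0.60 without the 3 arrays). With 3-AT the change was -0.57 ± 0.58, adjusted p = 0.48, in wild type and -0.87 to -0.03 in the mutants, and none passed. PRB1 was lower with 3-AT than with rapamycin in wild type (-1.46 ± 0.58, adjusted p = 0.043). That call did not hold when any 1 of 7 of the 8 arrays compared was left out (adjusted p = 0.066 to 0.10; the exception was replicate 3 with 3-AT), or with no filter on dim probe sets (adjusted p = 0.053), and it passed without the 3 arrays (adjusted p = 7.5e-05).

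PRC1, for carboxypeptidase Y, gave 21052, 17162, 18453 and 20566 in wild type with rapamycin and 16929.6, 15483, 15155 and 15502 with 3-AT, against 15131, 14643, 14090.1 and 16509 untreated. The rapamycin arrays lie just above the untreated ones, and the 3-AT arrays overlap them. The change with rapamycin was 0.35 ± 0.38, adjusted p = 0.50, with all arrays, and it passed without the 3 in wild type (adjusted p = 0.013), gcn2 (0.38 ± 0.12, adjusted p = 0.0086), gcn2 gln3 (0.59 ± 0.13, adjusted p = 2.8e-04) and gcn4 gln3 (0.49 ± 0.13, adjusted p = 0.0020). In gcn4 gln3 the value with all arrays was -0.54 ± 0.38, adjusted p = 0.24, so its sign turns with replicate 2 of the rapamycin group. With 3-AT the 6 genotypes ran from -0.30 to 0.16, and none passed with or without the 3 arrays.

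The carboxypeptidase gene CPS1 gave 4235, 3870.3, 2183 and 1711 on the 4 arrays of wild type with rapamycin, against 193, 295, 187 and 176 in untreated wild type. The groups lie far apart, though the rapamycin arrays vary widely among themselves. CPS1 rose by 3.75 ± 0.28, adjusted p = 1.8e-17, a 13.4-fold change. It also rose in gcn2, with 1839, 3014, 2710.1 and 2103 with rapamycin against 307, 311, 301 and 215 untreated (3.08 ± 0.28, adjusted p = 8.4e-14). In gcn4 it gave 2753, 2339.5, 2119 and 2990.1 with rapamycin, against 162, 241, 239 and 178 untreated (3.65 ± 0.28, adjusted p = 1.0e-16). The response in gcn2 was smaller than that of wild type by a difference that did not pass (-0.67 ± 0.39, adjusted p = 1.0, 95% interval -1.46 to 0.12). The difference in gcn4 did not pass either (-0.10 ± 0.39, adjusted p = 0.999, 95% interval -0.89 to 0.68).

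Without GLN3 the rise of CPS1 with rapamycin was smaller but still passed. In gln3 CPS1 gave 471, 522, 309.6 and 346 with rapamycin, against 207, 170.3, 184 and 209 untreated (1.07 ± 0.28, adjusted p = 0.0020). Every treated array lies above every untreated one there, and below every rapamycin array of wild type, gcn2 and gcn4. The response differed from that of wild type by -2.68 ± 0.39, adjusted p = 9.6e-06. In the double mutants CPS1 averaged 684 (gcn2 gln3) and 740 (gcn4 gln3) with rapamycin, against 412 in gln3. The strain gcn2 gln3 gave 623, 1039.9, 586 and 488 with rapamycin, against 279, 253, 299 and 183 untreated (1.40 ± 0.28, adjusted p = 7.9e-05). The strain gcn4 gln3 gave 1101, 987, 296 and 578 with rapamycin, against 221, 243, 344 and 209 untreated (1.40 ± 0.28, adjusted p = 4.8e-05). In gcn4 gln3 the arrays overlap, and the rise did not pass with only the arrays compared in the fit (adjusted p = 0.14), nor did its difference from wild type (adjusted p = 0.11). With all arrays the differences from wild type were -2.35 ± 0.39, adjusted p = 2.6e-05, in gcn2 gln3 and -2.35 ± 0.39, adjusted p = 2.7e-05, in gcn4 gln3. Against gln3 alone, the response of gcn2 gln3 differed by 0.33 ± 0.39, adjusted p = 1.0 (95% interval -0.46 to 1.11), and that of gcn4 gln3 by 0.33 ± 0.39, adjusted p = 0.61 (95% interval -0.46 to 1.11), so neither passed.

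With 3-AT, CPS1 gave 397, 299.7, 371 and 306 in wild type, against the untreated values above, with no overlap. That rise was small (0.71 ± 0.28, adjusted p = 0.038), and it did not pass with quantile normalization (0.48, adjusted p = 0.21) or median centring (0.49, adjusted p = 0.19). It also did not pass without replicate 1, 3 or 4 of untreated wild type (adjusted p = 0.081, 0.084 and 0.10) or without replicate 1 or 3 of wild type with 3-AT (adjusted p = 0.098 and 0.084). In the mutants the change was 0.60 ± 0.28 (gcn4) and otherwise -0.22 (gcn2 gln3) to -0.04 (gcn4 gln3), of which none passed. In gcn4 too all 3-AT arrays (251 to 417) lie above all untreated ones (162 to 241), and in the other mutants the groups overlap. No mutant's CPS1 response to 3-AT passed against that of wild type (differences -0.93 to -0.11, adjusted p of 0.20 or more). In wild type CPS1 was lower with 3-AT than with rapamycin (-3.04 ± 0.28, adjusted p = 1.2e-13).

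APE3, for aminopeptidase Y, had group means that ran from 12055 to 16214 with rapamycin, 12633 to 15172 with 3-AT and 13150.0 to 14147 untreated over the 6 genotypes. It gave 16954, 13176, 13638 and 17984 in wild type with rapamycin and 13224, 13657, 11345 and 12367 with 3-AT, against 14826, 10734, 12995 and 14045 untreated, and all 3 groups overlap. The changes in wild type were 0.23 ± 0.26, adjusted p = 0.53, with rapamycin (95% interval -0.29 to 0.75) and -0.05 ± 0.26, adjusted p = 0.90, with 3-AT (95% interval -0.57 to 0.47). No comparison of APE3 passed with all arrays or without the 3. The lowest value was -0.59 ± 0.26, adjusted p = 0.061, in gcn4 gln3 with rapamycin, where replicate 2 gave 2519.6 and the other 3 arrays 9364 to 19379.6, and it was 0.04 without the 3 arrays.

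DAP2, for the dipeptidyl aminopeptidase of the vacuolar membrane, gave 2950.0, 3433, 3906 and 4119.8 in wild type with rapamycin and 2674, 2906, 3206 and 3123 with 3-AT, against 1273, 1085, 1634 and 1513 untreated. Both drug groups lie above all the untreated arrays, and they overlap each other. DAP2 rose by 1.39 ± 0.21, adjusted p = 1.8e-07, with rapamycin and by 1.13 ± 0.21, adjusted p = 1.5e-05, with 3-AT, and the 2 drugs did not differ by a margin that passed (-0.27 ± 0.21, adjusted p = 0.35, 95% interval -0.69 to 0.15). It rose in every mutant as well, with rapamycin by 0.93 (gln3) to 1.37 (gcn2 gln3) and with 3-AT by 0.73 (gcn4 gln3) to 1.36 (gln3). In each of the 12 comparisons all drug-treated arrays lie above all untreated arrays of the genotype. The rise with 3-AT in gcn4 gln3 did not pass with median centring (0.38, adjusted p = 0.14), and that with rapamycin in gcn4 gln3 did not with only the arrays compared in the fit (adjusted p = 0.083). Of the 10 differences between a mutant response and the wild-type one, none passed. They ran from -0.47 (gln3 with rapamycin, 95% interval -1.06 to 0.12) to 0.23 (gln3 with 3-AT, 95% interval -0.36 to 0.82). On the 3 arrays with high actin ratios DAP2 was the highest of its group, at 4981, 6060.2 and 4645, and without them it rose in the same comparisons (for example in gcn2 gln3 by 1.12 with rapamycin and 0.91 with 3-AT).

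**Figure D2:**
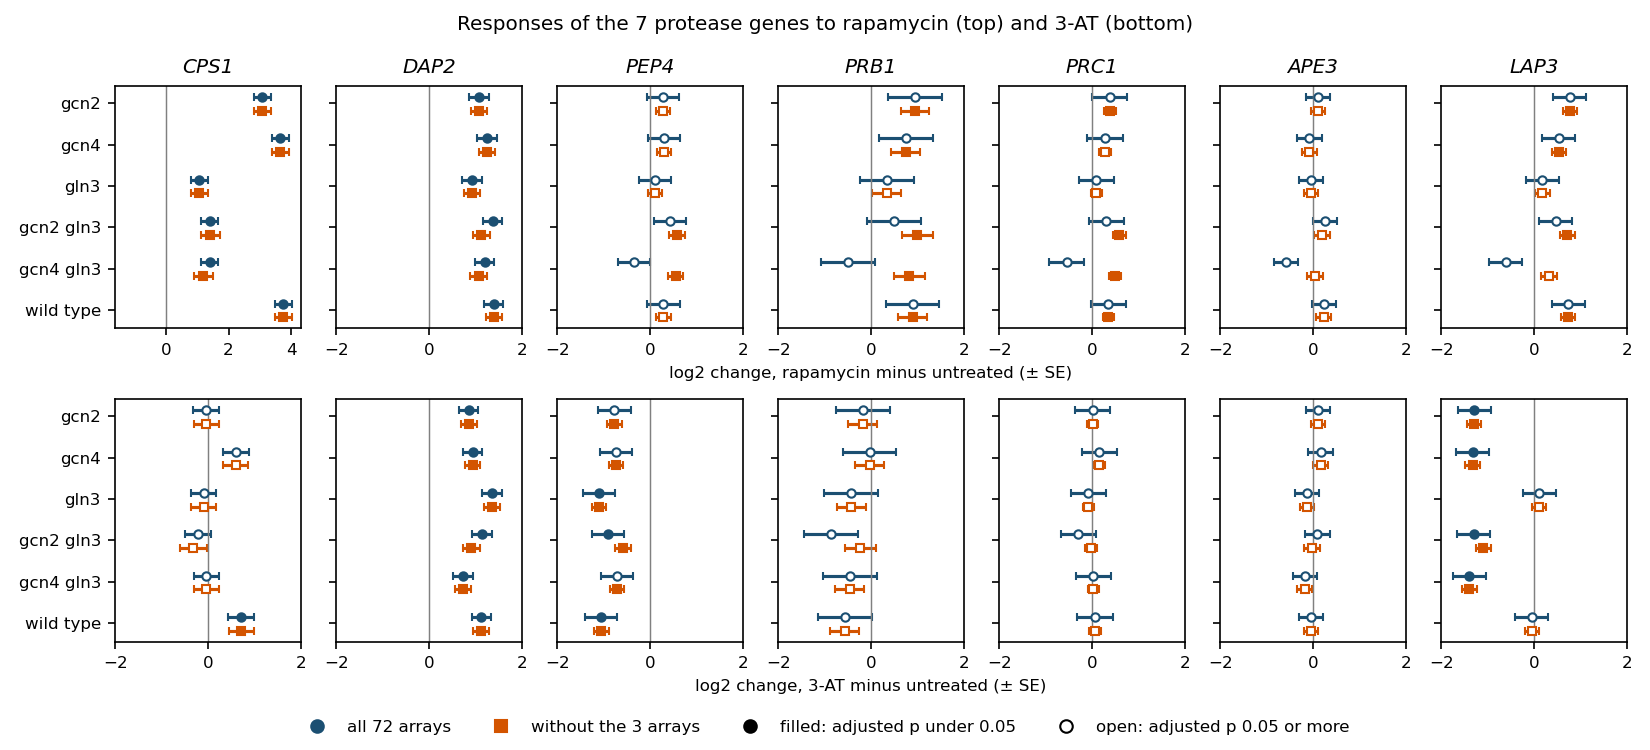
Log2 change ± SE with rapamycin (top) and 3-AT (bottom) for each gene in each genotype, with all 72 arrays (circles) and without the 3 arrays with high actin ratios (squares); filled symbols have an adjusted p under 0.05. The horizontal scale of CPS1 with rapamycin is wider than the others. CPS1 changes with rapamycin by 1.07 in gln3 and 3.75 in wild type, and DAP2 is above 0 in all 12 comparisons.

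LAP3, for the cytosolic bleomycin hydrolase, gave 1117, 1349.9, 1813 and 1492 in gcn4 with 3-AT, against 3195, 3689, 3773 and 3606 untreated. In gcn2 it gave 1259.8, 1159, 1875 and 1608 with 3-AT, against 3256, 3666, 4148 and 3188 untreated. In both strains every 3-AT array lies well below every untreated one, and LAP3 fell (-1.32 ± 0.35, adjusted p = 0.0017, in gcn4 and -1.29 ± 0.35, adjusted p = 0.0027, in gcn2). It fell in the double mutants too, to 1258, 1427, 1512 and 1162 in gcn4 gln3 with 3-AT, against 3214, 3111, 4072 and 3693 untreated (-1.39 ± 0.35, adjusted p = 0.0010). In gcn2 gln3 it fell to 894, 1344, 1828 and 1563 with 3-AT, against 2434, 3398, 4781 and 3176 untreated (-1.30 ± 0.35, adjusted p = 0.0025). The strains that keep both GCN2 and GCN4 showed overlapping groups. There, LAP3 gave 3714, 2843, 5050.2 and 3678 in wild type with 3-AT, against 3402, 3787, 4367 and 3999.8 untreated (-0.05 ± 0.35, adjusted p = 0.93), and 3397, 4095, 4430.5 and 4297 in gln3 with 3-AT, against 2976, 3774, 4052 and 4242 untreated (0.11 ± 0.35, adjusted p = 0.84).

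The difference between these responses was tested directly. Against wild type it was -1.24 ± 0.50, adjusted p = 0.25, in gcn2, -1.27 ± 0.50, adjusted p = 0.15, in gcn4, -1.25 ± 0.50, adjusted p = 0.17, in gcn2 gln3 and -1.34 ± 0.50, adjusted p = 0.11, in gcn4 gln3, so none passed with all 72 arrays. Without the 3 arrays all 4 passed, at adjusted p = 2.0e-05, 9.8e-06, 6.1e-04 and 3.3e-06, and with only the arrays compared in the fit they passed as well (adjusted p = 0.0053, 0.0018, 0.047 and 0.0011). Of the 3 arrays only the one of gcn2 gln3 with 3-AT is in these groups, so for gcn2, gcn4 and gcn4 gln3 the estimate is the same and the standard error was 0.22. Set against gln3, the LAP3 response to 3-AT differed by -1.41 ± 0.50, adjusted p = 0.10, in gcn2 gln3 and -1.51 ± 0.50, adjusted p = 0.055, in gcn4 gln3 (adjusted p = 6.7e-05 and 2.7e-07 without the 3 arrays). The difference between gln3 and wild type was 0.16 ± 0.50, adjusted p = 1.0 (95% interval -0.84 to 1.17; -0.27 to 0.60 without the 3 arrays).

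With rapamycin LAP3 gave 6551, 6978, 6368 and 5985 in wild type, all above the untreated arrays, and its change passed only without the 3 arrays (0.74 ± 0.35, adjusted p = 0.094; adjusted p = 4.9e-05 without them). That held for gcn2 (0.77 ± 0.35), gcn4 (0.53 ± 0.35) and gcn2 gln3 as well (adjusted p = 3.4e-05, 0.0029 and 3.3e-04 without the 3 arrays). In gln3 it was 0.18 ± 0.35, adjusted p = 0.75, and did not pass without them either (adjusted p = 0.33), and the difference from wild type did not pass (-0.56 ± 0.50, adjusted p = 1.0; adjusted p = 0.14 without the 3 arrays). In gcn4 gln3 it was -0.61 ± 0.35, adjusted p = 0.16, with replicate 2 at 329 and the other 3 arrays at 3846 to 5134, and 0.33 ± 0.17, adjusted p = 0.10, without the 3 arrays. Set against rapamycin in wild type, LAP3 with 3-AT differed by -0.79 ± 0.35 (adjusted p = 0.077; 1.9e-05 without the 3 arrays).

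**Figure D3:**
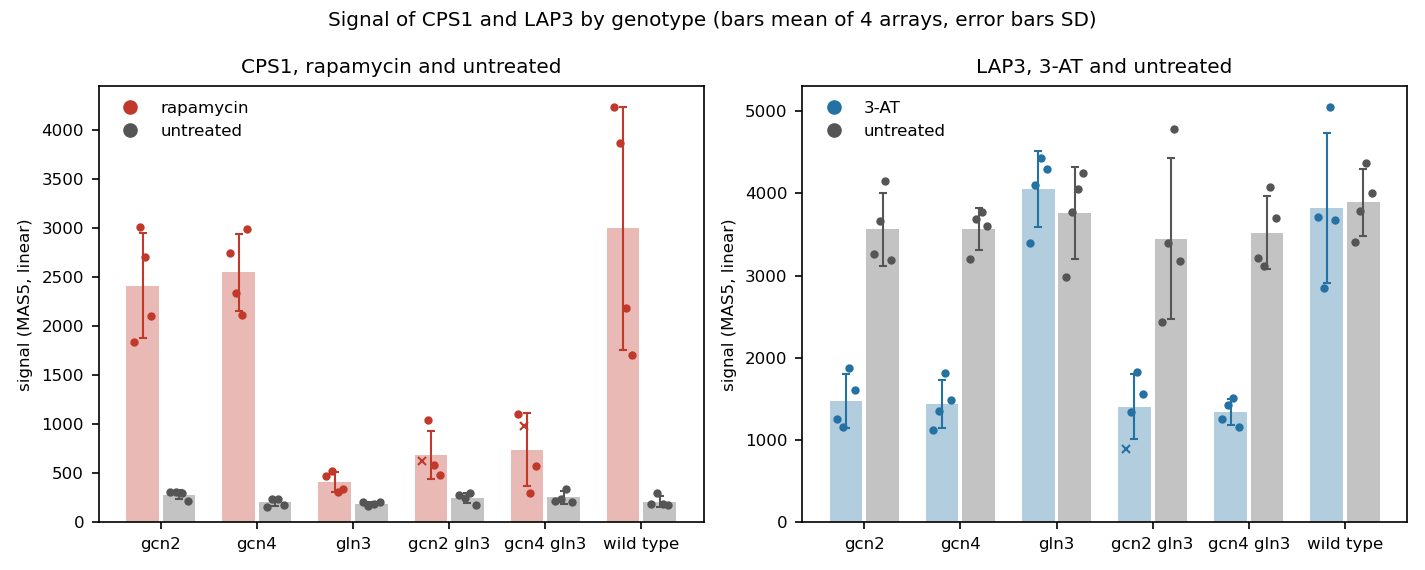
Linear signal of CPS1 with rapamycin and untreated (left) and of LAP3 with 3-AT and untreated (right), by genotype; bars are means of 4 arrays, error bars SD, points single arrays and crosses arrays with an actin 3′/5′ ratio above 10. CPS1 averages 412 in gln3 with rapamycin and 2999.9 in wild type with rapamycin, and LAP3 averages 1443 in gcn4 with 3-AT and 3821 in wild type with 3-AT.

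Counted over all 7 genes, 2 rose with rapamycin in wild type (CPS1 and DAP2), beside 22.2% of all probe sets that rose. The same 2 genes rose in gcn2 (background 17.5%), gcn4 (22.9%), gln3 (21.2%), gcn2 gln3 (16.5%) and gcn4 gln3 (23.0%). Without the 3 arrays the members that rose were 2 in gln3 (background 32.5%), 4 in gcn4 (34.7%), 5 in gcn2 (29.8%), 5 in gcn4 gln3 (27.2%), 6 in gcn2 gln3 (24.3%) and 5 in wild type (33.0%), and none fell. The median change of the 7 genes with rapamycin in wild type was 0.74, and that of all probe sets 0.14. With 3-AT, 2 rose and 1 fell in wild type, where 35.8% of all probe sets passed in either direction. With it 1 rose and 1 fell in gcn2 (38.4%), gcn4 (45.0%), gln3 (30.7%) and gcn4 gln3 (42.1%), and 1 rose and 2 fell in gcn2 gln3 (39.2%). With all arrays 2 or 3 of 7 is near the share of all probe sets, so these counts say nothing particular about the members.

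The differences of response were rarer. With rapamycin, 1 of 7 passed in gln3, CPS1, where 0.903% of all probe sets passed, and the same gene in gcn2 gln3 (3.30%) and gcn4 gln3 (4.12%). With 3-AT, no member passed by limma in gcn2 (3.42%), gcn4 (5.63%), gcn2 gln3 (4.99%) or gcn4 gln3 (5.56%) with all arrays. At an unadjusted p under 0.05 these counts were 1, 1, 2 and 1 of 7. The share of all probe sets at that threshold was 9.96%, 14.8%, 15.3% and 15.1%. LAP3 passed without the 3 arrays in each of the 4 strains, where the background was 8.88%, 14.4%, 10.5% and 15.1%. Between 3-AT and rapamycin in wild type 3 of 7 passed, PEP4, PRB1 and CPS1, all lower with 3-AT, beside 15.8% of all probe sets. LAP3 and PRC1 were lower as well without the 3 arrays, at a background of 24.3%.

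Without treatment, none of the 7 genes differed from wild type in any mutant by a margin that passed in limma, with all arrays or without the 3. With all arrays 0 of 7 had an unadjusted p under 0.05 in each of these 5 comparisons. Of all probe sets 1.34% (gcn2) to 7.47% (gcn4 gln3) did. Without the 3 arrays 1 of the 7 did, in gcn4 gln3. The share of all probe sets that passed was 0.801% in gln3, 1.21% in gcn4, 0.146% in gcn2, 1.19% in gcn4 gln3 and 1.31% in gcn2 gln3. CPS1 gave 207, 170.3, 184 and 209 in untreated gln3, against 193, 295, 187 and 176 in untreated wild type (-0.12 ± 0.28, adjusted p = 1.0, 95% interval -0.67 to 0.44). The largest difference was that of PRB1 in gcn4 gln3 (-0.64 ± 0.58, adjusted p = 0.98), which gave 2002, 5220.1, 5336 and 5138 in untreated gcn4 gln3, against the untreated wild-type values above. Of these 4 arrays replicate 1 lies far below the other 3.

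Ranked over the 18 groups with all arrays, the levels of each gene formed a near-continuous series in which most neighbours overlapped. For CPS1 the 3 highest group means were wild type, gcn4 and gcn2 with rapamycin, at log2 signals of 11.45, 11.30 and 11.21, and a gap of 1.85 with no overlap parted them from the rest. The next 3 were the strains without GLN3 with rapamycin, and the lowest was gln3 with 3-AT (7.49). For DAP2 the only neighbours without overlap were ranks 12 and 13, where the 12 drug-treated groups end and the 6 untreated groups begin, a gap of 0.73. For LAP3 the only neighbours without overlap were gcn2 and gcn4 with rapamycin, at ranks 2 and 3 with a gap of 0.24, and the 4 lowest were the 3-AT groups of the gcn2 and gcn4 strains. These 4 groups reached at most a signal of 1875. The group ranked just above them, by a gap of 0.67, was gcn4 gln3 with rapamycin. Its replicate 2 gave 329 and its other 3 arrays 3846 to 5134, so it overlapped them through that array alone. No neighbours in the order of PEP4, PRB1, PRC1 or APE3 were free of overlap. The lowest group of PRC1 and of APE3 was gcn4 gln3 with rapamycin, which holds the same replicate 2.

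The 7 genes did not follow 1 pattern. Over the 18 group means, which share arrays and the scaling of each array, the log2 levels of PRB1 and PRC1 had a Pearson correlation of 0.850 (0.830 without the 3 arrays), those of PEP4 and PRB1 of 0.766 (0.788), and those of PEP4 and DAP2 of -0.231 (-0.116). CPS1 and PRC1 went together at 0.526, which was 0.794 without the 3 arrays. Among the 5409 genes whose own probe set passed the background filter, the 3 most like CPS1 were DAL80 (0.971), NRS1 (0.971) and VBA1 (0.960). DAL80 encodes a GATA-type repressor, and VBA1 a vacuolar transporter of basic amino acids. Without the 3 arrays they were VBA1 (0.979), NRS1 (0.973) and YPQ2 (0.968). The 3 most like DAP2 were IWR1 (0.964), TRR2 (0.960) and UBA4 (0.960), the 3 most like LAP3 LDO16 (0.965), COX9 (0.936) and ACS2 (0.926), and the 3 most like PEP4 MCA1 (0.977), PAR32 (0.975) and ARC40 (0.972). Those of PRC1 were WTM1 (0.983), YFR018C (0.940) and PIL1 (0.932), those of PRB1 PRO3 (0.943), YER152C (0.935) and YFR018C (0.931), and those of APE3 RCF1 (0.830), RAS2 (0.808) and ARC1 (0.796). Of these 3 genes each, without the 3 arrays 2 stayed for CPS1 and DAP2 and 1 stayed for PEP4, PRC1 and LAP3 and 0 stayed for PRB1 and APE3.

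Other genes of the vacuole and of the route to it were read in the same fit. Of those named below, PFF1 and ATG19 have 2 probe sets of their own, and only the brighter one was tested. Over all probe sets 22.2% rose and 15.7% fell with rapamycin in wild type, and 22.2% rose and 13.6% fell with 3-AT. With the 3 arrays left out these shares were 33.0% and 21.8% with rapamycin and 31.0% and 22.8% with 3-AT. Of 10 further vacuolar hydrolase genes, 5 rose with rapamycin in wild type (median 1.28, against 0.14 over all probe sets). The 5 were LAP4, for aminopeptidase I (2.16 ± 0.43), PHO8, for vacuolar alkaline phosphatase (2.02 ± 0.21), RNY1, for a vacuolar ribonuclease (1.68 ± 0.38), ATG42, for a carboxypeptidase related to Prc1 (1.42 ± 0.31) and ATH1, for acid trehalase (1.14 ± 0.31). PFF1, for a vacuolar membrane metalloprotease, stood at -0.78 ± 0.33, adjusted p = 0.053, and was a fall that passed with quantile normalization (adjusted p = 0.020), median centring (adjusted p = 0.0098) or without the 3 arrays, where 6 of the 10 rose and 1 fell. With 3-AT 5 rose: LAP4 (2.13 ± 0.43), PHO8 (1.75 ± 0.21), PFF1 (1.23 ± 0.33), ATG42 (0.99 ± 0.31) and PPN1, for a polyphosphatase (0.62 ± 0.23). PPN1 did not pass with quantile normalization (adjusted p = 0.099) or median centring (adjusted p = 0.19). AMS1, for vacuolar alpha-mannosidase, stood at -1.09 ± 0.48, adjusted p = 0.069, and was a fall that passed with median centring (adjusted p = 0.016) or without the 3 arrays (adjusted p = 1.1e-09). PHO8 rose less with 3-AT in gcn2 (-1.58 ± 0.30, adjusted p = 1.4e-04) and gcn4 (-1.43 ± 0.30, adjusted p = 5.9e-04) than in wild type.

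Among 3 genes for cytosolic inhibitors of these enzymes, PAI3, whose product inhibits Pep4, rose with rapamycin in wild type (1.40 ± 0.28, adjusted p = 3.4e-05). PBI2, whose product inhibits Prb1, fell with 3-AT (-2.44 ± 0.28, adjusted p = 1.4e-10), and TFS1, whose product inhibits carboxypeptidase Y, stood at 0.86 ± 0.46, adjusted p = 0.14, with rapamycin (adjusted p = 3.9e-05 without the 3 arrays, where it passed) and at 0.16 with 3-AT, which did not pass. A further list holds peptidases related to the 7 enzymes in sequence or only in kind of activity. Of its 9 tested genes, 5 rose and 1 fell with rapamycin, and 4 rose and 1 fell with 3-AT (5 and 2 without the 3 arrays). YSP3, for a relative of Prb1, rose by 2.52 with rapamycin and 1.23 with 3-AT, and YOL153C, related to CPS1 in sequence, by 2.24 and 2.66. AAP1, for an aminopeptidase, rose by 1.22 and 2.20, and MKC7, for an aspartyl protease of the cell surface, fell (-1.43 and -1.08). The YOL153C response to rapamycin in gln3 was 2.22 ± 0.34, and its difference from wild type did not pass (-0.02 ± 0.47, adjusted p = 1.0). RRT12, another relative of PRB1, was above background on 1 of 72 arrays and was not tested.

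Of 10 genes for delivery to the vacuole 7 rose with rapamycin in wild type, as many as with quantile normalization or median centring (8 without the 3 arrays). Among them were PEP12, for a syntaxin of the endosome (2.11 ± 0.34), ATG8, which marks autophagosomes (1.90 ± 0.27), and ATG19, the receptor that carries the LAP4 product to the vacuole (0.96 ± 0.32). VPS10, the sorting receptor of carboxypeptidase Y, did not pass (0.23 ± 0.19, adjusted p = 0.36). With 3-AT 3 rose, among them ATG1, for the kinase that starts autophagy (2.71 ± 0.30), and with either of these scalings 1 rose and 1, YPT7, fell. Of 15 genes for the vacuolar ATPase and its assembly, which acidify the vacuole, 1 rose and 2 fell with rapamycin (median 0.14), and 1 rose and 3 fell with 3-AT (median -0.34; with median centring 6 fell). STV1, for a subunit of the Golgi and endosome form, fell with both (-0.85 ± 0.14 and -0.58 ± 0.14). The ATPase genes that rose and fell without the 3 arrays were 4 and 2 with rapamycin, and 1 and 6 with 3-AT, and the delivery genes that rose with 3-AT were 6 with 1 that fell.

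**Figure D4:**
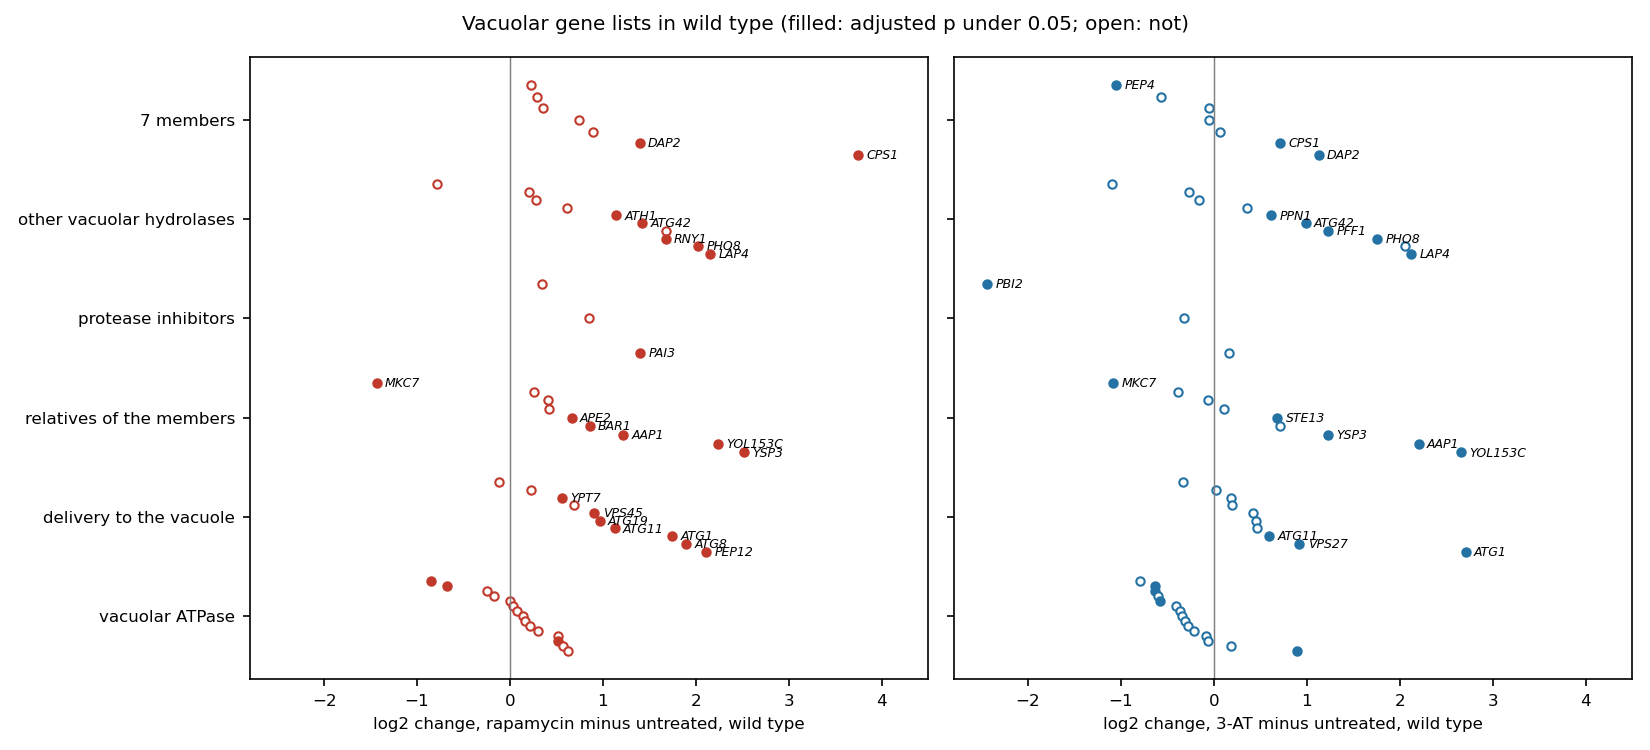
Log2 change of each tested gene of 6 lists in wild type, with rapamycin (left) and 3-AT (right); filled points have an adjusted p under 0.05, and those outside the vacuolar ATPase list are named. CPS1 stands at 3.75 with rapamycin, to the right of every other gene drawn, and PBI2 at -2.44 with 3-AT, to the left of every other.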

How the data were processed

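Expression was measured on 72 Affymetrix yeast arrays, and per the labels' protocols 5 ug of RNA, extracted with hot phenol, went into cRNA. The deposited values are linear signal intensities per probe set, made by the authors with GCOS and MAS5 per the submitters' processing notes, with versions not given in the sources used here. Mean intensity with 2% trimmed at each end was 1000.6 to 1001.2 on every array in the deposited table, so the arrays had a common scale. The median was 259 to 400.2, and the number of arrays limits the precision. The highest correlation between any pair of arrays was 0.989, so no array was taken as a copy of another.

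From these intensities, values under 16.5 (the 10th percentile over all arrays) were set to that floor, and log2 was taken with no further scaling. Probe sets above the 30th percentile of their array on at least 4 arrays were kept, 1 per gene by highest mean, which left 6869 probe sets. All 18 group means were fitted together with limma 3.58.1 in R 4.3.3 (54 residual degrees of freedom, prior 4.54), with Benjamini-Hochberg adjustment within each of 32 contrasts, after the fit was tested on simulated data. Alternatives were the floor, the scaling, the filter, the arrays in the fit, the replicate number as a block and each array left out. Genes were named through the platform annotation, updated by gene identifier to RefSeq names. The 7 genes and the other lists were chosen with earlier results of these data known. Genes outside these lists are named as the 3 with the highest Pearson correlation with a member over group means. Same-numbered drug and untreated arrays of a genotype deviated from their group means with correlations of -0.23 to 0.71, and 41 of 48 pairs were over 0.1. Arrays of the same number thus share variation in most pairs but not in all, and the labels do not say what a number shares, so the fit has no block and the blocked fit is an alternative. Sequences of the genes were not used here.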

Additional observations from a re-analysis of the deposited data

Results flagged for a closer look

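The response of CPS1 to rapamycin differed from that of wild type by -2.68 in gln3, -2.35 in gcn4 gln3 and -2.35 in gcn2 gln3 on the log2 scale, by a test of the difference itself in limma. The remaining values lie far from the other 3 arrays of their group, measured by the gap to the nearest one over the whole range, as 15 of 126 groups of values did. Chance gives about 1 in 20.

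Of these 15, 6 lie on the 3 arrays with high actin ratios. Replicate 2 of gcn4 gln3 with rapamycin was low for PEP4 at 1354 (others 14054 to 17378), PRB1 at 191 (others 5924 to 9734), PRC1 at 1107 (others 14768 to 23679) and LAP3 at 329 (others 3846 to 5134). Replicate 1 of gcn2 gln3 was low for LAP3 with rapamycin at 2729.9 (others 5222 to 5954) and high for DAP2 with 3-AT at 4981 (others 2534 to 2796). The part of RNA quality in these 6 values was not tested further.

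On other arrays, PEP4 was high at 8184 (others 5558 to 5822) in replicate 3 of wild type with 3-AT and at 16888 (others 14398 to 14710.2) in replicate 4 of gcn2 with rapamycin. PRB1 was low in replicate 1 of 3 groups, at 5442 (others 10455 to 11048) in gcn4 with rapamycin, 2245 (others 5012 to 5811) in untreated gcn2 gln3 and 2002 (others 5138 to 5336) in untreated gcn4 gln3. CPS1 was high at 295 (others 176 to 193) in replicate 2 of untreated wild type and low at 215 (others 301 to 311) in replicate 4 of untreated gcn2. APE3 was high at 15070.5 (others 12811 to 13092) in replicate 4 of gln3 with rapamycin, and DAP2 low at 3094 (others 3793 to 3935) in replicate 1 of gln3 with 3-AT.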

How the results depend on the processing

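Of 32 member results that passed with all arrays, 25 passed under every alternative run and 7 did not under at least 1 of them. Those 7 are named above, but not with every setting under which they did not pass. With quantile normalization 2 of them did not pass, and with only the arrays compared in the fit 4 did not. The members that passed without the 3 arrays numbered 5 in wild type, 5 in gcn2, 4 in gcn4, 6 in gcn2 gln3 and 5 in gcn4 gln3 with rapamycin, against 2 with all arrays. They numbered 5 between 3-AT and rapamycin in wild type, against 3, and 1 against 0 for each 3-AT response of gcn2, gcn4, gcn2 gln3 and gcn4 gln3 set against wild type and of both double mutants set against gln3. For the 3-AT responses against gln3 without the 3 arrays, 379 of all probe sets were higher and 484 lower in gcn2 gln3. In gcn4 gln3 670 were higher and 655 lower. The last 6 member counts were also 1 with only the arrays compared in the fit. There rapamycin gave 5 in wild type, 5 in gcn2, 4 in gcn4 and 0 in gcn4 gln3 (0 too for its difference from wild type), and 3-AT gave 4 in gcn4. The 3-AT response of gcn4 gln3 against gln3 also had 1 with median centring or with only probe sets above background on every array. With median centring 204 of all probe sets were higher in that comparison and 304 lower. With quantile normalization 1 passed for gcn4 gln3 against wild type and for both double mutants against gln3. Of all probe sets 151 were higher and 274 lower for gcn4 gln3 against wild type with that scaling. Against gln3 126 were higher and 232 lower in gcn2 gln3, and 210 higher and 296 lower in gcn4 gln3. Leaving out single arrays gave 2 to 5 members with rapamycin in gcn4 gln3 and 1 to 3 for its difference from wild type. The share of all probe sets was not counted with single arrays left out, only the arrays compared or another filter. Member counts under those settings thus have no background beside them. In gcn4 gln3 with rapamycin the sign turned without the 3 arrays for PEP4 (0.55), PRB1 (0.82) and PRC1 (0.49), and single arrays left out gave PEP4 -0.68 to 0.55 and PRC1 -0.98 to 0.49. Replicate 2 of that group decides these. Of 224 member results, 82 changed sign under at least 1 setting without passing either there or with all arrays.

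Quantile normalization moved the median of all probe sets by -0.26 to -0.09 and median centring by -0.37 to -0.05 over the drug comparisons. Rapamycin in wild type had 1522 higher and 1075 lower of all probe sets, 1285 higher and 1270 lower with quantile normalization and 1266 higher and 1334 lower with median centring, and 3-AT had 1523 higher and 934 lower, 1180 higher and 1256 lower and 1120 higher and 1533 lower. With the replicate block rapamycin in wild type had 1706 higher and 1182 lower, 34 of 48 arrays correlated best with their own number, and 2 member calls changed: PEP4 with 3-AT in gcn2 passed (adjusted p = 0.046), as did LAP3 in gcn4 gln3 against gln3 (adjusted p = 0.029, 1 member in place of 0). For that LAP3 comparison 340 of all probe sets were higher and 338 lower with the block. The cause of the changes under these settings was not tested. For the other gene lists the settings without the 3 arrays and the scalings were chosen after seeing the data, as was that without the 3 arrays for the genes most like each member.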

Other observations

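Some genes outside the 7 responded to 3-AT less in the strains without GCN2 or GCN4. AAP1, for an aminopeptidase, rose by 2.20 ± 0.16 in wild type, and its response was smaller in gcn2 (-1.01 ± 0.22, adjusted p = 0.0016) and gcn4 (-0.85 ± 0.22, adjusted p = 0.0098) by limma. ATG1, for the autophagy kinase, differed in the same comparisons by -1.80 ± 0.42, adjusted p = 0.0033, in gcn2 and -1.81 ± 0.42, adjusted p = 0.0026, in gcn4. ATG8, also on the delivery list, went the other way. Its mean signal with 3-AT was 1253 in wild type, 2579 in gcn2 and 2351 in gcn4, against 1296, 1322 and 1252 untreated. The highest differences from wild type on that list were 0.997 in gcn2 and 0.876 in gcn4, and neither passed with all arrays. These genes were named after their values were seen.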
